A study of Mus musculus with 57 samples.

Results

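Described here are 10 mouse genes of purinergic signalling other than P2ry12: the nucleotide receptors P2ry6, P2ry2, P2rx4 and P2rx7, the adenosine receptors Adora3, Adora2a and Adora2b, and the enzymes Entpd1, Nt5e and Ada. They were chosen by symbol, and 10 of 10 were found both in the table of the LPS experiment, among 53278 genes, and in that of the sex experiment, among 50565. All 10 passed the filter on low counts, beside 15857 and 31709 genes in all. RNA was sequenced from CD11b-positive brain cells, which the labels call microglia, of adult wild-type (WT) mice and of littermates that lack P2RY12 (KO). In the LPS experiment animals of both genotypes were labelled LPS, for lipopolysaccharide given intraperitoneally at 1 mg/kg, or ns, a label that is not defined and is used here as written. It holds 8 KO ns, 8 KO LPS, 8 WT ns and 9 WT LPS libraries. The sex experiment, with 4 WT and 5 KO animals of each sex, carries no treatment label, and Saa3, a gene strongly induced by LPS, lay between 0 and 0.362 CPM in it. CPM is a gene's count per M counts sequenced, with M for mega. The sources used here do not give the animals' age in weeks, the way the KO allele was made or, for the LPS experiment, their sex.

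Cells that are injured or active release ATP, UTP and their diphosphates, which act on G-protein-coupled P2Y receptors and on P2X receptors, which are cation channels opened by ATP. CD39, encoded by Entpd1, removes phosphates from ATP and ADP to leave AMP, and CD73, encoded by Nt5e, turns AMP into adenosine, which acts on its own receptors until adenosine deaminase (Ada) converts it to inosine. In microglia, P2RY12 and P2RY6 are known for guiding processes to sites of injury and for uptake of debris, P2RX7 for inflammasome activation, and P2RX4 for its rise in the spinal cord after nerve injury.

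Depth ranged from 15.9 to 168.4 M counts in the LPS experiment and from 58.5 to 318.5 M in the sex experiment. Of low counts, up to 20, 79.0% to 89.2% were even in the sex experiment, against 39.7% to 45.6% in the LPS experiment. The reason was not tested, so the depths of the 2 experiments are not set against each other. The 4 WT libraries of number 2 went against their labels in the LPS experiment: Saa3 stood at 1805 to 2381 CPM in the ns libraries WT ns 1 and WT ns 5, so labelled, against 1.54 to 65.0 CPM in the other WT ns libraries. It stood at 1.60 to 2.89 CPM in WT LPS 1 and in WT LPS 6, so labelled, against 1458 to 9402 CPM in the other WT LPS libraries. They are therefore shown apart and enter no comparison. WT LPS 8 and WT LPS 9 were nearly identical and were counted as 1 sample, so that each WT group had 6 samples. On the first principal component 6 libraries stood apart: WT ns 5 and WT LPS 6, both of number 2, and WT LPS 7, KO ns 5, KO ns 6 and KO LPS 5. They had 2.69% to 8.55% of counts from mitochondrial genes against 0.787% to 1.81% in the other 27, and counts of calls are given with and without them. Library names fall into 2 sets, each with every group: Xist lay at 0.700 to 2.12 CPM in the 16 libraries of set 1 and at 728.3 to 2533 CPM in the 17 of set 2, and the set was a covariate. P2ry12 transcript, which checks the genotype, was at 3551 to 5395 CPM in WT ns and 580.7 to 1152 CPM in KO ns. Microglial markers (Tmem119, Sall1, Cx3cr1 and 6 others) were detected in every group, with none at 0, and summed to 19600 to 37100 CPM in WT ns and 10100 to 22100 CPM in WT LPS. In such bulk samples fewer cells of a type and less RNA per cell cannot be told apart. The labels do not say that libraries came from separate animals in the LPS experiment, so the p-values measure the spread between these samples.

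Per kilobase of exon the 10 genes spanned a wide range in WT ns. The counts of the LPS experiment come without gene lengths, so it is assumed here that they were made over exons. Entpd1 was highest at 162 ± 24.3 CPM per kb (SD, n = 6), followed by P2ry6 at 96.1 ± 21.2, and the ranges of these genes overlapped. P2rx7, the ATP-gated channel of the inflammasome pathway, came next at 64.0 ± 4.75 CPM per kb, Adora3 at 30.7 ± 4.45 and P2rx4 at 14.6 ± 0.929; these ranges did not overlap each other. Ada followed at 2.94 ± 1.63 CPM per kb. The last 4, Adora2a (0.702 ± 0.142), P2ry2 (0.665 ± 0.373), Nt5e (0.408 ± 0.476) and Adora2b (0.375 ± 0.210 CPM per kb), overlapped each other, so their order is not resolved. In WT LPS the top of the order was P2ry6 at 133 ± 22.7 CPM per kb and then Entpd1 at 53.8 ± 15.3, whose ranges no longer overlapped. In KO LPS the same 2 genes ranged from 81.3 to 155 and from 61.3 to 124 CPM per kb and overlapped.

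The first comparison asked which of these genes differ after LPS in each genotype. In KO, 4 of the 10 rose (P2ry2, P2rx4, P2ry6 and Ada) and 1 fell (Entpd1) at an adjusted p under 0.05. That is 5 of 10, where 28.3% of all genes tested were called, 13.1% higher and 15.2% lower, and the 1 of 10 that fell is near the latter share. In WT, P2ry2, P2rx4 and P2ry6 rose and Entpd1, P2rx7 and Nt5e fell, 6 of 10, where 30.3% of all genes were called, 14.8% higher and 15.5% lower. The median log2 fold change of the 10 genes was 0.34 in KO and 0.35 in WT, against -0.020 and -0.011 over all genes tested. P2ry2, P2ry6, P2rx4 and Entpd1 were called in both genotypes. DESeq2 called 7 of the 10 in KO, where it called 31.9% of all genes, and 6 in WT, where it called 35.0%. Without the 6 libraries that stand apart, 7 of 10 were called in KO, where 55.0% of all genes were, and 6 of 10 in WT, where 54.6% were. In library set 1 alone 6 were called in KO and 4 in WT, beside 44.9% and 42.6% of all genes. In set 2 alone, with as many samples and all 6 of those libraries, 2 were called in each, beside 4.65% and 3.62%. The samples of KO ns and KO LPS did not overlap for 2 genes, P2rx4 and Entpd1, and those of WT ns and WT LPS for 4, P2ry2, P2rx4, P2rx7 and Entpd1. Of all genes tested, 7.71% had groups that did not overlap in KO and 25.1% in WT. When the WT libraries of number 2 were placed in the groups of their labels, 0% of all genes and none of the 10 were called in WT (3605 genes had an unadjusted p under 0.05), against 22.3% of all genes in KO.

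**Figure D1:**
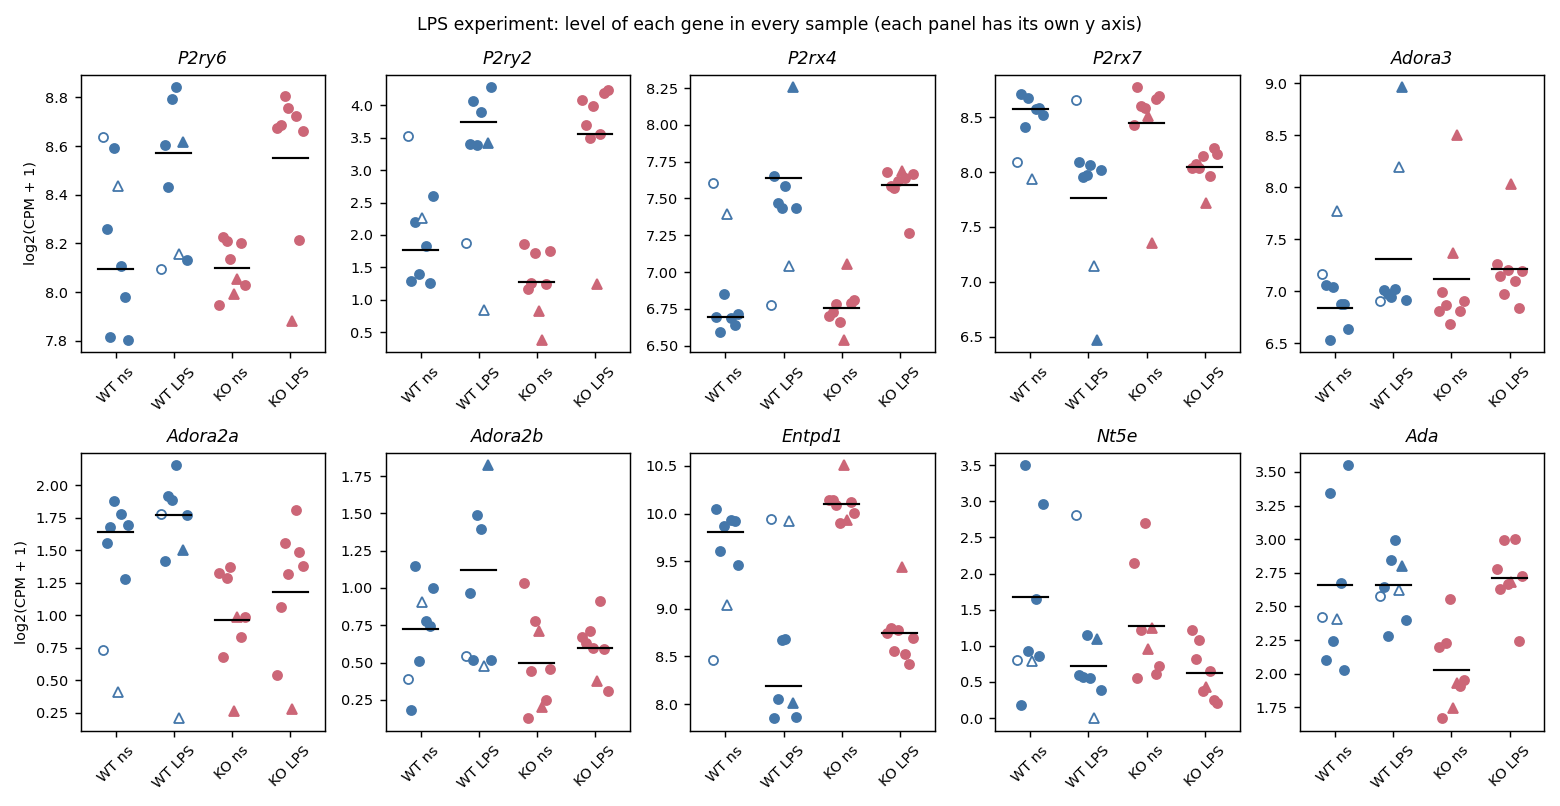
Level of each of the 10 genes in every library of the LPS experiment, as log2(CPM + 1) with its own axis per gene, by group (blue WT, red KO). Triangles mark the 6 libraries that stand apart, open symbols the WT libraries of number 2 and black lines the group means without the latter; Entpd1 is lower and P2rx4 higher in both LPS groups, and most open symbols of these genes lie nearer to the mean of the opposite label.

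Of the P2Y receptors, P2ry2 encodes a receptor for ATP and UTP. It lies at chr7:100645775-100661260 (- strand) on GRCm39, near P2ry6 at chr7:100586837-100628528 (- strand). Its lowest, median and highest levels were 1.39, 2.09 and 5.06 CPM in WT ns and 9.44, 11.8 and 18.5 CPM in WT LPS. In KO they were 0.303, 1.39 and 2.62 CPM with ns and 1.37, 13.4 and 17.9 CPM with LPS. The WT groups did not overlap, and in KO the overlap came from 1 library that stands apart, KO LPS 5, at 1.37 CPM, while the other 7 KO LPS libraries lay at 10.3 CPM or above. P2ry2 rose with a log2 fold change of 3.01 (SE 0.43, adjusted p = 3.06e-06) by edgeR in KO and 2.30 (SE 0.47, adjusted p = 0.000491) in WT. In library set 1 alone the log2 fold changes were 2.82 in KO and 2.42 in WT, and in set 2 alone 3.34 and 2.30, the last with an adjusted p of 0.159 by edgeR. The neutrophil markers summed to 1080 to 10400 CPM in KO ns and 2020 to 4900 CPM in KO LPS, and without the 2 libraries highest in them (WT ns 3 and WT ns 8) the log2 fold change of P2ry2 in WT was 2.88.

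P2ry6 encodes a receptor for UDP. In WT its lowest, median and highest levels were 222, 263 and 385 CPM with ns and 279.5, 389.6 and 458 CPM with LPS, and in KO 246, 273 and 298 CPM and 235, 409.6 and 447 CPM. The groups overlapped in both genotypes, and the medians were higher with LPS. P2ry6 rose with a log2 fold change of 0.47 (SE 0.13, adjusted p = 0.00721) by edgeR in KO and 0.48 (SE 0.15, adjusted p = 0.0174) in WT. The WT call for P2ry6 was lost without WT ns 3 (log2 fold change 0.41, adjusted p = 0.0513 by edgeR) and without WT LPS 5 (0.40, adjusted p = 0.0503). It was lost as well without both WT ns 3 and WT ns 8 (0.34, adjusted p = 0.142), where 4 of the 10 genes were called in WT, beside 24.1% of all genes, and 5 in KO, beside 27.3%. Within library sets the log2 fold change was 0.63 and 0.42 in KO and 0.38 and 0.61 in WT, for sets 1 and 2, and only the KO value of set 1 was called.

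Of the P2X receptors, P2rx4 lies at chr5:122845581-122867802 (+ strand) on GRCm39 and P2rx7 upstream of it on the same strand, at chr5:122781990-122830399 (+ strand). Both encode ATP-gated cation channels. P2rx4 had its lowest, median and highest levels at 95.4, 102 and 115 CPM in WT ns and 172, 183 and 305 CPM in WT LPS, and at 92.1, 107 and 132 CPM in KO ns and 153, 197 and 205 CPM in KO LPS. Every LPS sample was above every ns sample in both genotypes. P2rx4 rose with a log2 fold change of 0.84 (SE 0.11, adjusted p = 1.48e-06) by edgeR in KO and 0.97 (SE 0.13, adjusted p = 1.58e-06) in WT. It was called within each library set and genotype, with log2 fold changes of 0.93 and 0.87 in KO and 0.83 and 1.13 in WT for sets 1 and 2.

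P2rx7, near P2rx4 in the genome, fell in WT where P2rx4 rose. Its lowest, median and highest levels were 339, 381 and 418 CPM in WT ns and 87.9, 254 and 272 CPM in WT LPS. In KO they were 163, 385 and 436 CPM and 209.6, 265 and 298 CPM. The WT groups did not overlap, and in KO the overlap came from 1 library that stands apart, KO ns 6, at 163 CPM, while the other 7 KO ns libraries lay above every KO LPS library. P2rx7 fell in WT with a log2 fold change of -0.74 (SE 0.23, adjusted p = 0.0131) by edgeR, and had one of -0.45 (SE 0.20, adjusted p = 0.0904) in KO, short of the threshold. Without the 6 libraries that stand apart it was called in both, at -0.50 (adjusted p = 3.72e-07 by edgeR) in KO and -0.53 in WT. Within library sets 1 and 2 the WT values were -0.58 and -0.81 and the KO values -0.50 and -0.30. The difference between the genotypes in this response was 0.30 on the log2 scale (95% interval -0.28 to 0.88).

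The sequences upstream of the start sites of genes that moved are shown because the nearby genes P2rx4 and P2rx7 moved in opposite directions in WT, and because P2ry2 had the highest fold change and Entpd1 the strongest fall among the called genes in KO. They are the 250 bases before the start in RefSeq, on GRCm38.p6, a build other than that of the gene positions above, and 8 of the 10 genes had such a sequence, with 11 start sites between them. Each was searched on both strands for AP-1 (TGANTCA, in 6.75% of 32851 promoter windows), the cyclic AMP response element (TGACGT, 6.47%), PU.1 (GAGGAAGT, 2.44%), the interferon-stimulated response element by its consensus (2.98%) and NF-kB by its consensus (3.9%). Capitals mark the matches: an AP-1 match in P2rx7 and a match of the cyclic AMP element, on the reverse strand, in the second start site of Entpd1. Adora3, not printed, held an AP-1 and a PU.1 match, and 8 of the 11 windows held no match.
P2ry2, chr7:101011999-101012248 (- strand): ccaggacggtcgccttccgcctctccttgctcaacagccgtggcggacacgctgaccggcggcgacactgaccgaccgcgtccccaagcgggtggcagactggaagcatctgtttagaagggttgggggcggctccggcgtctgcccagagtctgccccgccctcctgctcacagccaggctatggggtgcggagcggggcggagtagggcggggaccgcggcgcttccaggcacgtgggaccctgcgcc
P2rx4, chr5:122707294-122707543 (+ strand): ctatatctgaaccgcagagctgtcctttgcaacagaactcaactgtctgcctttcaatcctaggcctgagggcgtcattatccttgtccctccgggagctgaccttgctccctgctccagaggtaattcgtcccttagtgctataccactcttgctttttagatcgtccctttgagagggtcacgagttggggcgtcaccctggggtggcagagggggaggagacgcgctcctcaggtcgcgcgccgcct
P2rx7, first start site, chr5:122643677-122643926 (+ strand): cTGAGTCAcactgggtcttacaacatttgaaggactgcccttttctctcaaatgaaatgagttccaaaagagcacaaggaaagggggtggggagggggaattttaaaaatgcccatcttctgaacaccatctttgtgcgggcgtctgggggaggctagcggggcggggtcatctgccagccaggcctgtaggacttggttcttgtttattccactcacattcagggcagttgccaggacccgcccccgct
Entpd1, first start site, chr19:40612116-40612365 (+ strand): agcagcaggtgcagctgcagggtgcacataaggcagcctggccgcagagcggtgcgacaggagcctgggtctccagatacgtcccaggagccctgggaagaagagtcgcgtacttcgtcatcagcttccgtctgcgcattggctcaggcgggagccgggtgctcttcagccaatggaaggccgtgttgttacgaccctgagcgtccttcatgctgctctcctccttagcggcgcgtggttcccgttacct
Entpd1, second start site, chr19:40659520-40659769 (+ strand): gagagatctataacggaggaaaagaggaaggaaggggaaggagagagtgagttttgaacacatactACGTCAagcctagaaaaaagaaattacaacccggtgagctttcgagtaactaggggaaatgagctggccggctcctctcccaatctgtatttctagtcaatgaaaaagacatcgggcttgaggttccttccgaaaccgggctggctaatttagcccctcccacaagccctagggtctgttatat
The windows of P2ry2 and P2rx4, both of which rose after LPS, held none of the 5 motifs.

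None of the adenosine receptors was called in the comparisons of LPS with ns when every sample was used. Adora3 encodes the A3 receptor, which couples to inhibitory G proteins. Its lowest, median and highest levels were 91.7, 117 and 132 CPM in WT ns, 120.2, 126 and 499 CPM in WT LPS, 102, 117 and 361 CPM in KO ns and 114, 143 and 261 CPM in KO LPS. The highest values belonged to libraries that stand apart: WT LPS 7 at 499, KO ns 6 at 361 and KO LPS 5 at 261 CPM. Its log2 fold change was 0.61 (SE 0.31, adjusted p = 0.14) by edgeR in WT and 0.057 (SE 0.27, adjusted p = 0.905) in KO. Without the 6 libraries that stand apart Adora3 rose in KO by 0.30 (adjusted p = 0.0036 by edgeR), and its WT value was 0.15 (adjusted p = 0.155). Adora3 overlaps Tmigd3 on the same strand, so reads of the 2 genes may be shared and its values are uncertain.

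Adora2a and Adora2b encode receptors that raise cyclic AMP. Adora2a had its lowest, median and highest levels at 1.42, 2.22 and 2.67 CPM in WT ns and 1.67, 2.56 and 3.45 CPM in WT LPS, and at 0.202, 0.985 and 1.59 CPM in KO ns and 0.213, 1.54 and 2.51 CPM in KO LPS. These levels rest on 5 to 436 counts per library. The LPS groups overlapped the ns groups, and the log2 fold changes were 0.22 (SE 0.46, adjusted p = 0.76) by edgeR in WT and 0.52 (SE 0.41, adjusted p = 0.395) in KO. Adora2b, at 0.132, 0.694 and 1.21 CPM in WT ns and 0.429, 1.29 and 2.53 CPM in WT LPS, was read from 2 to 69 counts per library over the 4 groups. In KO its levels were 0.0929, 0.366 and 1.04 CPM with ns and 0.240, 0.528 and 0.885 CPM with LPS. Its groups overlapped, with log2 fold changes of 0.89 (SE 0.50, adjusted p = 0.185) by edgeR in WT and 0.21 (SE 0.45, adjusted p = 0.789) in KO, whose 95% intervals ran from -0.094 to 1.88 and from -0.68 to 1.10. Adora2b and the summed monocyte markers correlated with r = 0.719 over the 14 ns libraries and 0.857 over the 14 LPS libraries. Without the 2 farthest libraries of each, r was 0.543 and 0.594. The neutrophil markers gave 0.601 and 0.702, and 0.327 and 0.403 without the 2 farthest. In all of these the points share libraries and depth.

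Of the enzymes, Entpd1, which starts the breakdown of ATP at the cell surface, fell in both genotypes. It lies at chr19:40600810-40730046 (+ strand) on GRCm39. Its lowest, median and highest levels were 704, 953 and 1061 CPM in WT ns and 230.4, 261 and 411 CPM in WT LPS. In KO they were 956, 1099 and 1452 CPM with ns and 342, 421 and 694 CPM with LPS. No LPS sample reached the level of any ns sample of its genotype. The log2 fold change was -1.34 (SE 0.16, adjusted p = 1.81e-07) by edgeR in KO and -1.59 (SE 0.19, adjusted p = 1.60e-07) in WT, and without the 6 libraries that stand apart -1.38 and -1.52. In library sets 1 and 2 it was -1.32 and -1.25 in KO (adjusted p = 0.0541 by edgeR in set 2) and -1.60 and -1.53 in WT. The summed microglial markers were lower with LPS too, 10600 to 22300 against 20600 to 33600 CPM in KO, with 7 of 9 markers called lower in WT, where 15.5% of all genes were, and 6 of 9 in KO, where 15.2% were. B cell markers (Cd79a, Cd79b and 3 others) had summed medians of 492 CPM in KO ns and 147 CPM in KO LPS, and of 450 and 107 CPM in WT, and the ns and LPS groups did not overlap. Whether the counts of these markers came from B cells was not tested. Endothelial markers (Cldn5, Pecam1 and 4 others) had summed medians of 83.6 and 30.2 CPM in KO and of 59.0 and 22.1 CPM in WT. Over 28 libraries, which share groups and depth, Entpd1 correlated with r = 0.952 with the B cell markers, 0.933 with the endothelial and 0.733 with the microglial ones. Over the 24 without libraries that stand apart these were 0.957, 0.928 and 0.929. Oligodendrocyte and dendritic cell markers gave 0.935 and 0.868 over those 24. All these r pool ns and LPS libraries, so the difference between the treatments enters them. Within treatment, r with the microglial markers was 0.428 over the 14 ns libraries and 0.135 over the 14 LPS libraries. Without the 2 farthest libraries of each it was 0.0583 and 0.871. For the neutrophil markers r was -0.786 over the ns and 0.0473 over the LPS libraries, and -0.572 and 0.703 without the 2 farthest. The monocyte markers gave -0.707 and -0.241, and -0.451 and -0.00871 without the 2 farthest. For the B cell, endothelial, oligodendrocyte and dendritic cell markers r was not taken within treatment. The part of these cell types in the fall of Entpd1 was not tested.

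Nt5e, which makes adenosine from AMP, was scarce. Its lowest, median and highest levels were 0.132, 1.51 and 10.3 CPM in WT ns and 0.304, 0.496 and 1.22 CPM in WT LPS, and 0.465, 1.13 and 5.48 CPM in KO ns and 0.160, 0.456 and 1.32 CPM in KO LPS, from 3 to 238 counts per library. The groups overlapped in both genotypes. WT ns 3 (10.3 CPM) and WT ns 8 (6.78 CPM) were the highest WT ns samples, and the other 4 lay at 2.13 CPM or lower. Nt5e fell in WT with a log2 fold change of -2.44 (SE 0.79, adjusted p = 0.0202) by edgeR, and had one of -1.53 (SE 0.68, adjusted p = 0.0942) in KO. The call in WT was lost without WT ns 3 (-2.04, adjusted p = 0.066 by edgeR), without WT ns 8 (-1.78, adjusted p = 0.0982), and within each library set (-2.28 and -2.41). Those libraries were also the highest in summed neutrophil markers (S100a8, S100a9, Ly6g and 7 others), at 18910 CPM in WT ns 3 and 17670 CPM in WT ns 8, and in monocyte markers, at 2314 and 1956 CPM. Without both, the log2 fold change of Nt5e in WT was -0.80 (SE 0.79, adjusted p = 0.506) by edgeR. Across the 14 ns libraries the levels of Nt5e and the neutrophil markers correlated with r = 0.886, and with r = 0.779 over 12 when those 2 were left out; across the 14 LPS libraries r was 0.601. The points share libraries and their depth, and the markers of monocytes gave similar values (0.885, 0.798 and 0.68).

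Ada removes adenosine by turning it into inosine. Its lowest, median and highest levels were 2.18, 2.84 and 4.89 CPM in KO ns and 3.73, 5.51 and 7.02 CPM in KO LPS, and 3.08, 4.57 and 10.7 CPM in WT ns and 3.86, 5.61 and 6.99 CPM in WT LPS. The groups overlapped in both genotypes. Ada rose in KO with a log2 fold change of 0.84 (SE 0.23, adjusted p = 0.00689) by edgeR, and had one of -0.12 (SE 0.27, adjusted p = 0.774) in WT. Within library sets 1 and 2 the KO value was 0.72 (adjusted p = 0.0701 by edgeR) and 1.11 (adjusted p = 0.129), so neither set alone reached the threshold. The summed monocyte markers had medians of 213 CPM in KO ns and 586 CPM in KO LPS, and Ada correlated with them with r = 0.750 over 28 libraries and 0.850 over the 24 without libraries that stand apart. These r pool ns and LPS libraries. Within treatment r was 0.784 over 14 ns and 0.429 over 14 LPS libraries, and 0.605 and 0.587 without the 2 farthest of each. Over the 18 animals of the sex experiment it was 0.477, and -0.0564 without the 2 farthest. For the neutrophil markers r was 0.805 over the ns and 0.506 over the LPS libraries, and 0.588 and 0.75 without the 2 farthest of each. In the sex experiment it was 0.508, and 0.0157 without the 2 farthest. The summed neutrophil markers had medians of 2480 CPM in KO ns and 3360 CPM in KO LPS. The part of the monocyte and neutrophil markers in the rise of Ada was not tested. The highest WT ns samples were again WT ns 8 at 10.7 CPM and WT ns 3 at 9.16 CPM, and without them the WT value was 0.48 (SE 0.24, adjusted p = 0.144) by edgeR.

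The WT libraries of number 2 gave values for these genes that followed their Saa3 level rather than their label for most of the genes called in both genotypes. For P2ry2 the values were 2.65 CPM (WT LPS 1) and 0.783 CPM (WT LPS 6) under the LPS label, and 10.6 CPM (WT ns 1) and 3.79 CPM (WT ns 5) under the ns label. For P2rx4 the values were 109 and 131 CPM under the LPS label and 194 and 167 CPM under the ns label. For Entpd1 they were 984 and 969.7 CPM under the LPS label and 353 and 525 CPM under the ns label. Of P2ry6, P2ry2, P2rx4 and Entpd1, both libraries under the LPS label were nearer to the WT ns mean in 4 of 4. The library labelled WT ns 1 was nearer to the WT LPS mean in 4 of 4, and that labelled WT ns 5, which also stands apart, in 2 of 4. For P2rx7 the values under the LPS label were 404 and 141 CPM, far apart, and under the ns label 271 and 244 CPM. For P2ry6 they were 272 and 285 CPM under the LPS label and 397 and 345 CPM under the ns label, within or close to both ranges. Adora2a stood at 2.425 CPM (WT LPS 1) and 0.1565 CPM (WT LPS 6) under the LPS label, and at 0.6623 and 0.328 CPM under the ns label. All of these but WT LPS 1 lay below the lowest WT sample compared, at 1.42 CPM.

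The second comparison asked whether loss of P2RY12 goes with other levels of these genes in the LPS experiment. With ns, none of the 10 differed between KO and WT at an adjusted p under 0.05, where 0.0883% of all genes did, and with LPS none did, where 0.0946% did. DESeq2 also called none in either. At an unadjusted p under 0.05 there were 2 genes in each, Ada and Adora2a with ns, and Adora2b and Entpd1 with LPS. The genotype-by-LPS interaction called none of the 10, where 0% of all genes were called, and only Ada had an unadjusted p under 0.05. For each of the 10 the groups overlapped between the genotypes, where 0.839% of all genes with ns and 0.259% with LPS had groups that did not. The comparisons within the LPS experiment share samples, so their values are not independent of each other.

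The genotype difference was bounded most closely for P2rx4, P2ry6 and Entpd1, which had the lowest standard errors with ns. With ns the log2 fold changes of KO against WT were 0.065 (95% interval -0.17 to 0.30) for P2rx4, -0.011 (-0.29 to 0.27) for P2ry6 and -0.085 (-0.49 to 0.33) for P2rx7. For Entpd1 they were 0.29 (-0.043 to 0.63) with ns and 0.54 (0.21 to 0.88, adjusted p = 0.459 by edgeR) with LPS. Adora2a, an adenosine receptor of low level here, had estimates of -1.12 (-1.96 to -0.27, adjusted p = 0.471 by edgeR) with ns and -0.82 (-1.65 to 0.017) with LPS. The WT libraries of number 2, which enter neither, ranged from 0.1565 to 2.425 CPM for Adora2a. Adora2b stood at -1.25 (-2.18 to -0.33, adjusted p = 0.637 by edgeR) with LPS. Ada was at -0.91 (-1.40 to -0.42, adjusted p = 0.342 by edgeR) with ns, and without WT ns 3 and WT ns 8, highest in Ada and in neutrophil markers, at -0.31 (-0.74 to 0.12). The Ada interaction was 0.96 (adjusted p = 0.754 by edgeR) and 0.36 without those libraries. P2ry2 and Nt5e had wide intervals, -1.62 to 0.089 and -2.57 to 0.13 with ns. Without the 6 libraries that stand apart none of the 10 was called with ns, with LPS or for the interaction, where 0.364%, 0.282% and 0.00628% of all genes were.

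The third comparison used the sex experiment, whose table counts whole gene spans, so its levels are not set against those of the LPS experiment. None of the 10 genes was called by edgeR or by DESeq2 in any of 5 contrasts. Of all genes tested, 0.00946% were called in KO against WT males, 0.164% in KO against WT females, 0.432% over both sexes, 0% for the interaction of sex and genotype, and 0.0725% in female against male WT. Only Nt5e had an unadjusted p under 0.05, in males and over both sexes. The groups overlapped for each of the 10, where 1.97% of all genes in males, 2.19% in females and 4.64% between the sexes in WT had groups that did not.

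**Figure D2:**
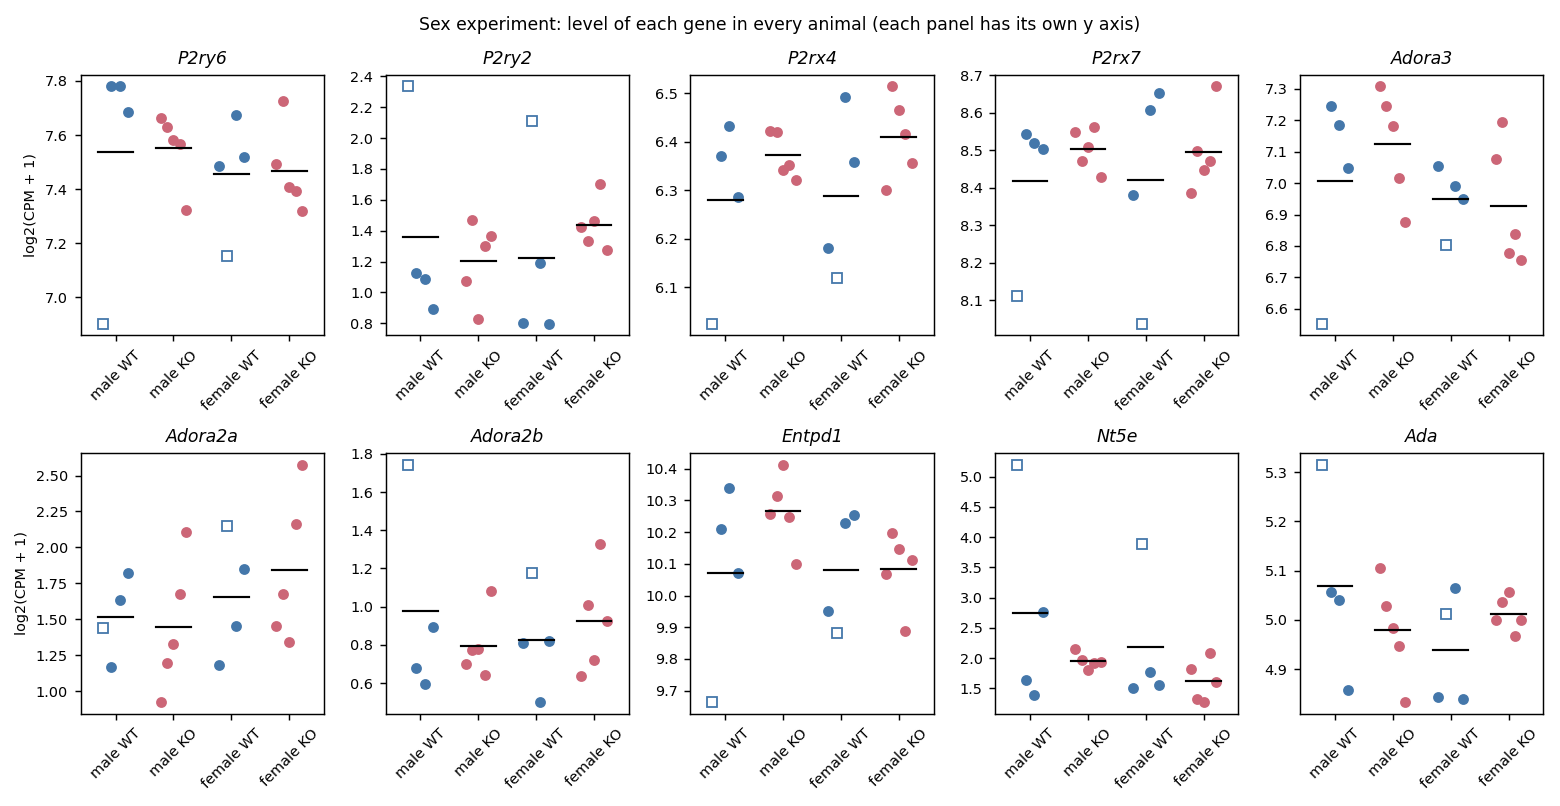
Level of each of the 10 genes in every animal of the sex experiment, as log2(CPM + 1) with its own axis per gene, by sex and genotype (blue WT, red KO), with black lines at the group means. Open squares are the 2 animals with the highest summed neutrophil markers, male WT 5 and female WT 2, which are the highest for Nt5e and P2ry2 and the lowest for P2ry6.

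Over both sexes the log2 fold changes of KO against WT were -0.013 (95% interval -0.13 to 0.11) for Ada, 0.10 (-0.016 to 0.22) for P2rx4, 0.068 (-0.084 to 0.22) for P2rx7, 0.088 (-0.074 to 0.25) for Entpd1, 0.045 (-0.13 to 0.22) for Adora3 and -0.0079 (-0.21 to 0.19) for P2ry6. Every one of these 6 intervals lay within 0.25 of 0 on the log2 scale. They hold for counts over whole gene spans, which may include reads of other genes. Ada overlaps Pkig and P2rx4 overlaps Camkk2 on the opposite strand, the strand setting is not given, and Adora3 overlaps Tmigd3. The genes of low level were less precise, with -0.12 (-0.76 to 0.51) for P2ry2, 0.13 (-0.42 to 0.68) for Adora2a and -0.17 (-0.75 to 0.41) for Adora2b. Between female and male WT the 10 log2 differences ran from -1.19 for Nt5e to 0.24 for Adora2a, each with an interval that held 0. The interaction of sex and genotype was highest for Adora2b at 0.76 (-0.40 to 1.92) and Nt5e at 0.76 (-1.49 to 3.01).

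For Nt5e the male WT animals stood at 2.12 (male WT 1), 1.62 (3), 5.81 (4) and 35.7 CPM (5). The male KO animals 1 to 5 stood at 3.47, 2.93, 2.50, 2.79 and 2.83 CPM. The female WT animals stood at 1.83 (female WT 1), 13.7 (2), 2.41 (3) and 1.95 CPM (5), and the female KO animals 1 to 5 at 2.54, 1.49, 1.43, 3.23 and 2.06 CPM. A single animal of each WT group, male WT 5 and female WT 2, was far above the rest, and the remaining WT animals lay among or near the KO animals. The same 2 animals had the highest summed neutrophil markers, at 49750 and 29980 CPM, the next being male WT 4 at 8547 CPM. They were also highest in monocyte markers, 4520 and 2591 CPM, and lowest in microglial markers, 16570 and 17810 CPM. The log2 fold change of Nt5e over both sexes was -1.59 (SE 0.58, adjusted p = 0.468) by edgeR, and -0.044 (95% interval -0.50 to 0.41) without those 2 animals. Across 18 animals Nt5e and the neutrophil markers correlated with r = 0.962, and over 16, without those 2, with r = 0.837; again the points share libraries and depth.

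**Figure D3:**
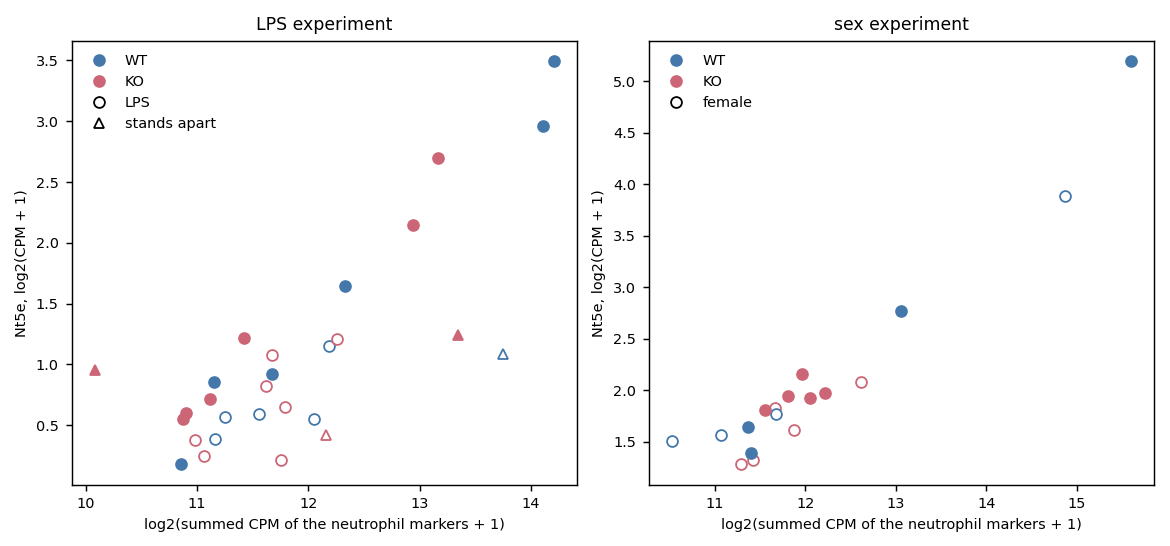
Nt5e, as log2(CPM + 1), against the summed CPM of the neutrophil markers, as log2(sum + 1), in the LPS experiment (left, open symbols LPS, triangles the libraries that stand apart) and in the sex experiment (right, open symbols female), blue WT and red KO. The highest Nt5e levels lie with the highest marker sums in both, at WT ns 3 and WT ns 8 on the left and at male WT 5 and female WT 2 on the right.

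P2ry2 was highest in the same animals. It stood at 4.04 CPM in male WT 5 and 3.31 CPM in female WT 2, against 0.739 to 2.25 CPM in the other 16. Without the 2 animals its log2 fold change over both sexes was 0.63 (SE 0.20, adjusted p = 0.241) by edgeR, where it had been -0.12, and none of the 10 genes was called in males, in females or over both sexes, where 0.0125%, 0.602% and 0.969% of all genes were. P2ry6, whose receptor binds UDP, was lowest in them, at 119 and 141 CPM.

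The genes with the most similar pattern were taken as the 2 with the highest Pearson r of log2(CPM + 1) over 28 libraries of the LPS experiment, which share groups and depth, among genes with a mean of at least 5 CPM. For P2ry2 they were Pim1 and Bcl3 (r = 0.971 for each), which had r = 0.814 and 0.854 over the 18 animals of the sex experiment. For P2rx4 they were Cxcl16 (0.982) and Gmppb (0.976), for P2rx7 Pkd2 (0.974) and Usp6nl (0.971), and for P2ry6 Gorasp2 (0.916) and Eef2kmt (0.910). Entpd1 was nearest to S1pr1 (0.975) and Sord (0.974), and Ada to Rac2 (0.893) and Uhrf1 (0.868). Nt5e was nearest to Fcnb (0.944) and Ltf (0.920), the latter one of the neutrophil markers above, and had r = 0.928 and 0.943 with them in the sex experiment. Adora2b was nearest to Cfp (0.788) and Vcan (0.776) and Adora2a to Slc16a3 (0.789) and Erdr1 (0.784). Adora3 had r = 0.974 with Mrpl36 and 0.974 with Dad1, and 0.706 and 0.784 over 24 libraries without those that stand apart. In the sex experiment 19 of these 20 pairs could be compared, and r there ran from -0.0745 (Adora3 with Mrpl36) to 0.943 (Nt5e with Ltf). It was under 0.5 for 6 of the 19, among them Entpd1 with S1pr1 (0.465) and Sord (0.101), P2rx4 with Gmppb (0.296) and Adora2a with Slc16a3 (0.177).

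Around the 10 genes, 50 others of the purinergic pathway were tested in the LPS experiment. In KO 23 of them were called, 10 higher and 13 lower, where 28.3% of all genes were called, 13.1% higher and 15.2% lower. In WT 19 were called, 10 higher and 9 lower, where the shares of all genes were 30.3%, 14.8% and 15.5%. Other P2Y receptors were lower wherever they were called, 5 of 7 in KO and 3 in WT. Gpr34, a lysophosphatidylserine receptor related to them, fell by 3.57 on the log2 scale in KO and by 2.79 in WT, and P2ry12 itself fell by 2.80 and by 2.97. The KO ns samples of Gpr34 ran from 1440 to 11700 CPM, and without KO ns 6 its value in KO was -2.96. Without that library the calls of P2ry13 and Gpr171 in KO were lost (adjusted p = 0.0626 and 0.0711 by edgeR). P2ry10 fell by 1.81 in KO, and its WT value was -1.21 (adjusted p = 0.098 by edgeR). Other P2X receptors were lower as well, 3 of 3 in KO and 2 in WT, with log2 fold changes in KO of -2.03 for P2rx3, -1.72 for P2rx1 and -1.05 for P2rx6. Only P2rx1 was well above 1 CPM, with means of 16.2 CPM in KO ns and 4.9 CPM in KO LPS. P2rx3 had means of 0.547 and 0.125 CPM there and P2rx6 of 0.443 and 0.206 CPM, so their falls rest on few counts. The KO call of P2rx6 was lost without KO ns 6 (adjusted p = 0.0711 by edgeR), and the WT call of P2rx3, at -1.87, when any 1 of 8 samples was left out, of 28 left out in turn. Of the other surface enzymes that act on nucleotides, 3 of 5 rose in KO, and 3 rose and 1 fell in WT. Entpd3, a relative of Entpd1, rose by 3.67 in KO and 2.81 in WT. Its level was low, with means of 0.224 CPM in KO ns, 2.92 CPM in KO LPS, 0.492 CPM in WT ns and 3.52 CPM in WT LPS. The lowest WT LPS sample, at 0.352 CPM, lay within the WT ns range of 0.0878 to 0.791 CPM. Cd38, which cleaves NAD, rose by 2.03 and 2.26, and Bst1, a related enzyme, by 1.95 and 1.57. The 1 that fell in WT was Enpp1 (-0.48), named here after its value was seen, and its call was lost when any 1 of 10 samples of the 28 was left out. Entpd1 and Entpd3 were thus called in opposite directions in both genotypes, though Entpd3 stayed far below Entpd1 in level in every group.

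Of 12 genes of purine salvage and breakdown other than Ada, 4 rose and 1 fell in KO, and 3 rose and 1 fell in WT, the latter count near the share of all genes called. Xdh, xanthine dehydrogenase, rose by 3.34 in KO and 1.69 in WT on the log2 scale, and Pnp2, a purine nucleoside phosphorylase, fell by 1.62 and by 1.18. Dck, deoxycytidine kinase, rose by 0.89 in KO, with a WT value of 0.41 (adjusted p = 0.254 by edgeR). Of 4 nucleoside transporters, Slc29a2 rose (1.35 and 1.21) and Slc29a1 fell (-0.63 and -0.45) in KO and WT. The WT calls of Xdh and Slc29a2 were each lost when any 1 of 4 samples was left out, and that of Slc29a1 without WT ns 4 (-0.31, adjusted p = 0.106 by edgeR). Of 8 genes of nucleotide release, 3 were called in KO and 2 in WT, again near the shares of all genes. The channel gene Panx1 rose by 0.58 and 0.83, Calhm2 fell by 0.88 and by 0.86, and Panx2 fell by 1.68 in KO, with a WT value of -0.81. Beside P2rx7, 2 of 7 genes of its inflammasome pathway were called in each genotype, near the share of all genes. Il1b, encoding the cytokine that the inflammasome matures, rose by 2.77 in KO and 3.31 in WT, with WT LPS samples from 82.8 to 2750 CPM. The highest was WT LPS 7, which stands apart, and without it the WT value of Il1b was 1.60 (adjusted p = 0.00707 by edgeR). Nek7 fell by 0.46 in KO, a call lost when any 1 of 11 samples was left out. Adora1 and the 3 tested intracellular relatives of Entpd1 were not called in either genotype. Between the genotypes 1 of the 50 was called with ns and 1 with LPS, in both cases the targeted P2ry12. In the sex experiment 2 of 64 were called over both sexes, P2ry12 and P2ry13, both lower in KO, where 0.432% of all genes were called.

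**Figure D4:**
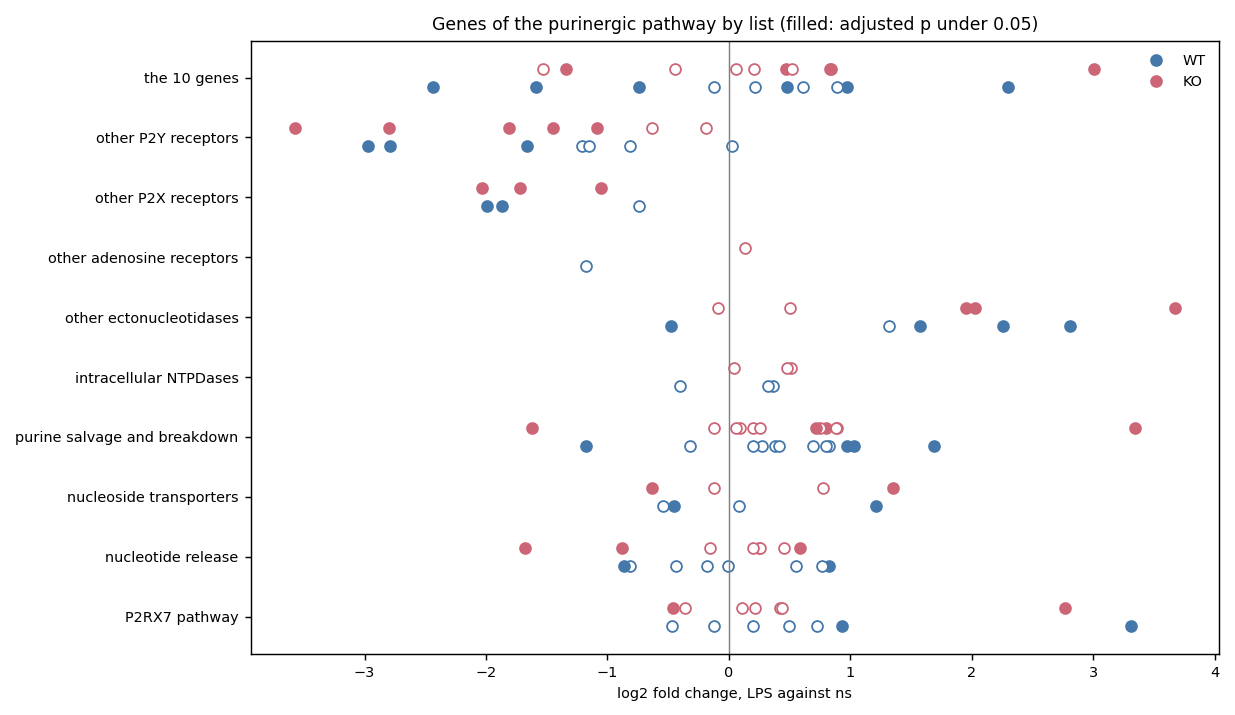
Log2 fold change, LPS against ns, of the 10 genes (top row) and of the other tested genes of the purinergic pathway, by list, in WT (blue) and KO (red), with filled symbols where the adjusted p was under 0.05. Called members of the lists of other P2Y and P2X receptors lie below 0, and the called surface enzymes lie above 0 except Enpp1.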

How the data were processed

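RNA of CD11b-positive mouse brain cells was counted per gene. For each experiment the authors deposited raw counts per gene in 1 table, as whole numbers without normalization. STAR 2.6.1, featureCounts, Subread, FastQC, DESeq2 and the build GRCm39 are named, without roles, in the submitters' processing notes. In the sex experiment's table, per the file headers, each gene has a length, which equals its whole span, so introns are counted there and overlapping genes can share reads. The strand setting is not given in the sources used here. No model was fitted to both tables. Columns were matched to samples by name, with 0 columns left without a sample, and 6 repeat libraries of the sex experiment were not analysed here.

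Genes were filtered with filterByExpr, scaled by TMM and tested with the quasi-likelihood F test of edgeR 4.0.16 in R 4.3.3, with p-values adjusted by the Benjamini-Hochberg method over all genes of a contrast. A gene is called, and said to have risen or fallen, at an adjusted p under 0.05. The LPS experiment was fitted as 1 model of 32 samples with library set as a covariate, with the WT libraries of number 2 as groups of their own and WT LPS 8 and WT LPS 9 summed. Their counts had a chi-square per degree of freedom of 1.86, against 8.32 or more for the other pairs of a group. The sex experiment was fitted as 1 model of 18 animals. The biological coefficient of variation was 41.0% and 35.3%. Intervals are the estimate ± 1.96 SE. CPM are counts per M counts (M for mega) of the TMM-scaled total, and levels per kb use exon lengths of the reference annotation. The test was checked on simulated counts.

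The 10 genes and the pathway and marker lists were chosen with earlier results of these data known. A gene each of the microglial and B cell lists is not reported here and is left out of the sums. The text names each of the 10 genes, up to 3 called genes of each pathway list by the size of their log2 fold change in KO LPS against KO ns, and the 2 genes most correlated with each of the 10. Alternatives were DESeq2 1.42.0, RLE scaling, no filter, a mean of at least 5 CPM, an added threshold of 1 on the absolute log2 fold change, groups by label alone, no library of number 2, the pair kept apart, no set covariate, each set alone, only the groups compared, a replicate block and each sample left out in turn. Leaving out the 6 libraries that stand apart, or the 2 samples of an experiment highest in neutrophil markers, was added after seeing the data.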

Additional observations from a re-analysis of the deposited data

Results flagged for a closer look

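Within groups of 4 to 10 samples, 16 values in 80 groups of a gene and a group lay far from the others of the group, by the gap to the nearest sample relative to the whole range. Chance marks about 1 in 20 groups in this way. In the LPS experiment, libraries that stand apart on the first principal component gave 9 of these values. WT LPS 7 was highest for Adora3 (498.6 CPM) and P2rx4 (304.8 CPM) and lowest for P2rx7 (87.87 CPM). KO ns 6 was highest for Adora3 (361.0 CPM) and lowest for P2rx7 (163.0 CPM), and KO ns 5 was highest for Entpd1 (1452 CPM). KO LPS 5 was highest for Adora3 (261.2 CPM) and Entpd1 (693.7 CPM) and lowest for P2ry2 (1.366 CPM). KO LPS 7, which does not stand apart, was lowest for P2rx4 (152.8 CPM).

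In the sex experiment, male WT 5 was highest for Nt5e (35.71 CPM) and P2ry2 (4.043 CPM) and lowest for P2ry6 (118.7 CPM) and P2rx7 (275.3 CPM), and female WT 2 was highest for Nt5e (13.74 CPM). These 2 animals had the highest summed neutrophil markers. Male KO 5 was highest for Adora2b (1.116 CPM).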

How the results depend on the processing

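Of 460 values of single called genes under an alternative setting, 435 had the same direction and side of the threshold, 25 had the same direction and lost the call, and 0 reversed. Most of the 460 are fits with 1 of 28 samples left out in turn, many of them outside the contrast, whose loss can change it little. Under the other settings the least stable calls were those of P2ry6 in WT, kept in 8 of 14, and Nt5e in WT, kept in 8 of 13. With an added threshold of 1 on the absolute log2 fold change, 2 of the 10 genes were called in KO LPS against KO ns, beside 14.6% of all genes, and 3 in WT LPS against WT ns, beside 18.3%. In library set 2 alone, which holds all 6 libraries that stand apart, 2 were called in each. With groups by label alone, 0 were called in WT LPS against WT ns, since the WT libraries of number 2 then enter it. Leaving out 1 sample at a time gave 5 to 6 called genes in KO and 4 to 6 in WT. The comparisons between genotypes or sexes had 0 called genes under every alternative run. The replicate block gave 5 called genes in KO LPS against KO ns, 6 in WT LPS against WT ns and 0 elsewhere. The numbers were not taken to pair the samples: deviations of same-numbered libraries correlated with a mean r of 0.112 over 38 pairs of the LPS experiment (lowest -0.63) and 0.266 over 8 pairs of the sex experiment (lowest -0.325). The block allows no value for female against male WT. The comparison restricted to the groups compared was not run for the contrasts of the sex experiment that need all 4 groups. Depth limits P2ry2, Adora2a, Adora2b and Nt5e, which had as few as 2 to 5 counts in a library of the LPS groups compared.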
